A study of Canis lupus familiaris with 6 samples.

Results

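FABP5, APOC1, LPL and APOE, 4 of the 34981 genes in the deposited tables, are described here across the cell classes of dog neural retina lying over a human retinal organoid graft and of graft-free retina. The genes were chosen by their names and by their CPM (the UMIs of a gene in a class, scaled to the same total of UMIs in every class and library) and positive share (percent of barcodes with at least 1 UMI) per cell class over the graft against control, so these differences are given as a description, with no test. Each of the 3 experiments, named LG5, RC726 and RC724, gave 1 library from a 5 mm punch over the graft and 1 library from a graft-free punch of the same retina. All 6 libraries came from immunosuppressed dogs with normal or wild-type retinas, sampled 3 days after triturated fragments of retinal organoids had been injected under the retina. The organoids were grown from WA09 CRX-tdTomato cells, a human embryonic stem cell line with a red fluorescent reporter for CRX. The control punches therefore shared the immunosuppression, the surgery and the grafted eye, and no untouched eye is among the samples. The labels state neither the age and sex of the dogs nor whether reads of human graft cells were separated from dog reads.

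Fatty acid binding proteins such as FABP5 carry fatty acids through the cytosol. Lipoprotein lipase, the product of LPL, is secreted and hydrolyses triglycerides of lipoproteins at the capillary wall, where the endothelial protein GPIHBP1 holds it. Apolipoprotein E is a ligand for lipoprotein receptors and carries cholesterol and phospholipids between cells of the nervous system, where glia are its known source. APOC1 encodes a small apolipoprotein, known from plasma work to inhibit lipoprotein lipase and the uptake of lipoproteins by receptors. Photoreceptor outer segments are rich in membrane lipid and are renewed continually.

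The 6 tables held 84417 barcodes with 34768162 to 60755006 UMIs per library, of which 75897 were kept. Classes are clusters named by marker genes and written as rod-like and so on, since no sort or label gives them, and the 4 genes were used neither to cluster nor to name cells. LG5 stood apart from the other experiments: its rods, cones and Müller glia fell almost entirely into clusters of their own, and its median UMI count per barcode was 1194 over the graft and 1281 in control, against 1954 to 2779 in the other libraries. Both LG5 libraries were also counted with another version of the counting software, Cell Ranger 6.0.2, against 7.0.0 or 7.1.0 in the others. The version cannot be told apart from the experiment, and its part in these differences was not tested. Values are therefore given per experiment. Pairs of libraries shared 17 to 102 barcode sequences. GNAT1, the rod transducin subunit, is among the markers that named the rod-like class, so its level there is no separate check of the name. GNAT1 had 2185, 1105 and 839.5 CPM in rods over the graft in LG5, RC726 and RC724, against 2747, 1310 and 1345 CPM in control rods. Müller glia-like cells had at most 129 CPM over the graft, against 153 CPM in control. The 12 rod markers summed to 19470, 18460 and 12150 CPM over the graft, against 35100, 24020 and 22870 CPM in control, so they were lower over the graft in each experiment, and their part in the results below was not tested.

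In rod-like cells, FABP5, APOC1 and LPL were higher over the graft in all 3 experiments, while APOE was low and had no common direction. FABP5 had 2370, 413 and 544 CPM over the graft in LG5, RC726 and RC724, against 267.5, 134 and 116 CPM in control. The lowest graft value stood above the highest control value, so the groups did not overlap. The mean log2 ratio per experiment, on CPM + 1, was 2.33 ± 0.77 (SD, n = 3 experiments), with the largest ratio, 3.14, in LG5. Of all 15338 genes tested in rod-like cells, 21.7% passed the edgeR test in either direction. Because this contrast chose the 4 genes, nothing is read from that share for them.

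**Figure D1:**
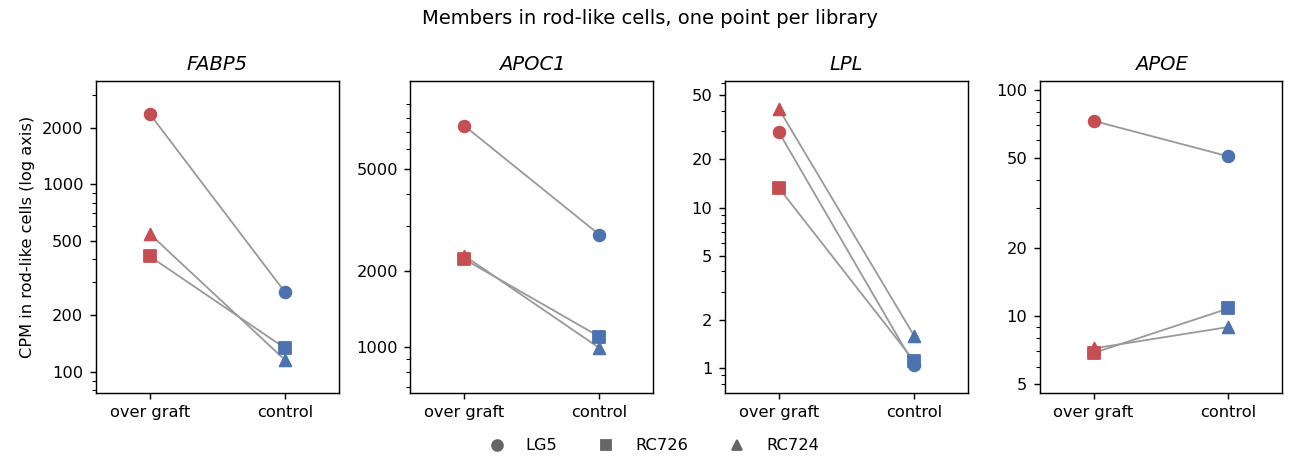
CPM of FABP5, APOC1, LPL and APOE in rod-like cells on log axes; each point is a library, red over the graft and blue control, and grey lines join the libraries of an experiment. FABP5 and LPL do not overlap between the groups, APOC1 is higher over the graft within each experiment, and the APOE lines do not share a direction.

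The share of rod-like barcodes with FABP5 was 83.0%, 44.4% and 49.1% over the graft, against 25.0%, 19.4% and 16.4% in control, with 5182 to 6915 barcodes per library. Exact 95% intervals, which cover counting error only, reached from 81.9% to 84.0% in LG5 over the graft and from 23.8% to 26.2% in the LG5 control. After each barcode was thinned to 500 UMIs the shares were 66.9%, 14.98% and 19.3% over the graft and 11.7%, 5.18% and 4.88% in control. The order of the groups was the same at equal depth. The median UMI count of rod-like barcodes was 796, 1668 and 1782 over the graft and 811, 1551 and 1564 in control.

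APOC1 was the most abundant of the 4 transcripts in photoreceptors. Rod-like cells had 7417, 2220 and 2291 CPM over the graft in LG5, RC726 and RC724, against 2774, 1103 and 996 CPM in control. The groups overlapped, because the LG5 control stood above the RC726 and RC724 punches over the graft, but each graft library was above its own control. The mean log2 ratio was 1.21 ± 0.20 (SD, n = 3 experiments), and the spread between experiments was smaller than for FABP5. APOC1 was found in 98.2%, 80.6% and 84.4% of rod-like barcodes over the graft and in 86.7%, 65.2% and 55.6% in control. Thinned to 500 UMIs, these shares were 95.2%, 52.4% and 57.1% over the graft and 72.2%, 34.4% and 28.7% in control.

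LPL was nearly absent from control rods. There were 176, 230 and 590 LPL UMIs in rods over the graft in LG5, RC726 and RC724, against 7, 16 and 16 UMIs in control, which is 29.4, 13.2 and 40.9 CPM over the graft, against 1.05, 1.11 and 1.60 CPM in control. The groups did not overlap, and the mean log2 ratio on CPM + 1 was 3.55 ± 0.70 (SD, n = 3 experiments). The transcript was found in a minority of rods, 3.12%, 2.23% and 6.80% of barcodes over the graft and 0.132%, 0.229% and 0.309% in control. Thinned to 500 UMIs, the shares were 1.38%, 0.579% and 1.84% over the graft and 0.0189%, 0.0305% and 0.0579% in control. Since the control levels lie near the pseudocount, the size of this ratio depends on it, as the closing section gives.

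APOE had 73.1, 6.89 and 7.22 CPM in rod-like cells over the graft in LG5, RC726 and RC724, against 50.9, 10.8 and 8.98 CPM in control. It was higher over the graft in LG5 and lower in RC726 and RC724, and the mean log2 ratio was -0.12 ± 0.57 (SD, n = 3 experiments). These levels were 0.733, 0.798 and 1.23 times the CPM that the estimate of free RNA gives over the graft, and 0.632, 1.04 and 1.54 times in control, so RNA of the rods and free RNA cannot be told apart for APOE. Free RNA is RNA from broken cells that is captured with any barcode. Its share in rods was estimated from the Müller glia markers found there, and its profile was taken as that of the whole library.

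**Figure D2:**
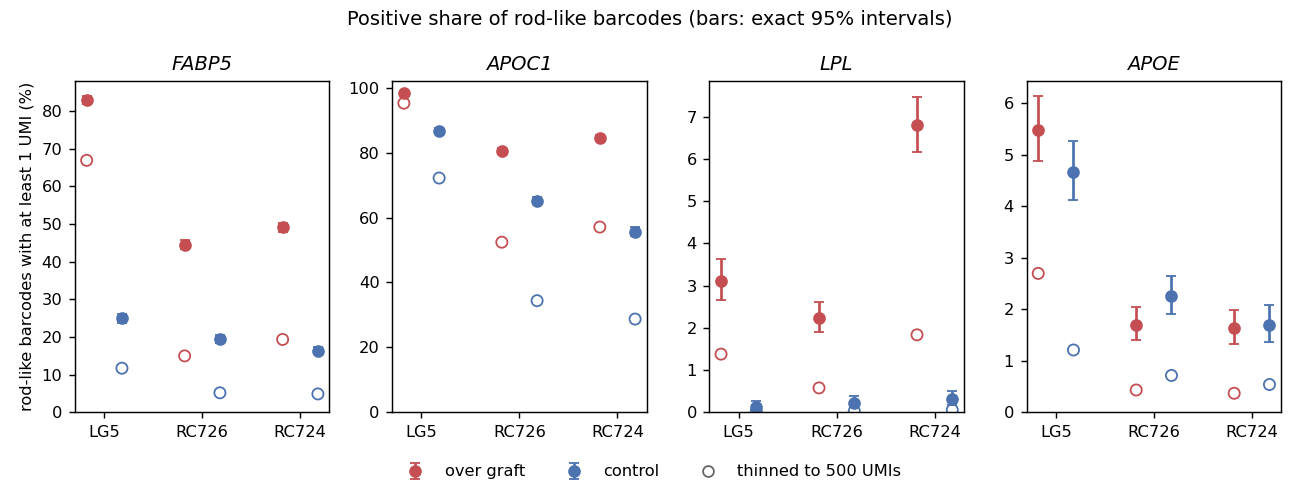
Percent of rod-like barcodes with at least 1 UMI of each gene, by experiment, red over the graft and blue control; filled points are shares as deposited with exact 95% intervals and open points are shares with every barcode thinned to 500 UMIs. FABP5, APOC1 and LPL have the higher share over the graft in each experiment, as deposited and thinned, and APOE does not.

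FABP5, APOC1 and LPL stood above the same estimate in rods. APOC1 had 19.9, 55.5 and 90.1 times the free RNA level over the graft in LG5, RC726 and RC724, and 11.3, 32.9 and 79.1 times in control. FABP5 had 16.5, 56.1 and 89.4 times that level over the graft and 7.78, 34.4 and 55.9 times in control. LPL had 18.1, 27.9 and 49.2 times that level over the graft and 3.597, 23.4 and 13.9 times in control. LPL was highest in endothelial-like cells, as given below. The 10 endothelial markers summed to 38.7, 14.1 and 14.99 CPM in rods over the graft, against 65.7, 19.5 and 24.1 CPM in control. The sum was lower over the graft in each experiment. CLDN5, a defining member of that list, went the other way at very low levels, 0.834, 0.861 and 1.60 CPM over the graft, against 0.150, 0.278 and 1.10 CPM in control, and its part in the LPL result was not tested. GPIHBP1 gave 0, 0 and 1 UMI in rods over the graft, against none in control. The 14 microglia or macrophage markers summed to 52.7, 5.00 and 6.45 CPM in rods over the graft and 17.7, 2.99 and 5.49 CPM in control, with CX3CR1 at 0 in 5 of the 6 libraries, and their part in the result was not tested.

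Rod-like cells came from several clusters that hold different shares of each library, so the ratios were also taken within them. The rod clusters numbered 0, 2 and 3 had no rod marker among their top 10 genes, which in 0 and 3 were mostly unnamed LOC genes, and were named by their mean marker enrichment. Before doublets were removed they held 1665, 2468 and 1605 of 7288 rod-like barcodes in RC726 over the graft, and 1729, 1779 and 1910 of 6981 in control. In RC724 they held 2405, 1721 and 1153 of 6358 over the graft, and 1605, 1069 and 1632 of 5500 in control. Within 16 pairs of a cluster and an experiment, FABP5 was higher over the graft in 16, with log2 ratios of 0.57 to 4.23 and a median of 2.08. APOC1 was higher in 15, with a median of 1.05 and a lowest value of -0.02, and LPL was higher in 15, with a median of 3.43. Some of these LPL pairs rest on 1 or 2 UMIs over the graft against 0 in control. They include cluster 1 of RC726, cluster 2 of LG5 and cluster 11 of RC724, and cluster 0 of LG5 had 0 in both. APOE was higher in 5. Clusters of a library are not independent, and the share of all genes higher in as many pairs was not taken. In RC726 and RC724, cluster 2 had 463 and 612 FABP5 CPM over the graft, against 152 and 136 CPM in control. In LG5, cluster 1 had 2589 CPM over the graft, against 273 CPM in control.

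FABP5 was found together with APOC1 in somewhat more rods than the product of the separate shares gives, over the graft and in control, and FABP5-positive barcodes were deeper. FABP5 and APOC1 were found together in 82.0%, 41.3% and 45.6% of rod-like barcodes over the graft in LG5, RC726 and RC724, where the product of the separate shares is 81.5%, 35.8% and 41.4%. In control the joint shares were 23.1%, 16.8% and 13.6%, with products of 21.7%, 12.7% and 9.11%. FABP5-positive rods over the graft had a median of 850, 3250 and 3133 UMIs, and rods without FABP5 had 653, 1350 and 1301 UMIs. At 500 UMIs per barcode the joint shares over the graft were 64.4%, 10.2% and 12.5% and the products 63.7%, 7.85% and 11.0%. LPL was found in 159, 109 and 268 FABP5-positive rods over the graft, or 3.04%, 1.58% and 4.51% of rod-like barcodes, where the products are 2.59%, 0.990% and 3.34%. At 500 UMIs per barcode the joint shares of FABP5 and LPL were 1.05%, 0.0868% and 0.421% over the graft, from 55, 6 and 25 barcodes, and the products 0.922%, 0.0867% and 0.355%, so in RC726 no excess was seen at equal depth.

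Cones, the daylight photoreceptors, carried APOC1 at levels close to those of rods. Cone-like cells had 6021, 1988 and 1892 APOC1 CPM over the graft in LG5, RC726 and RC724, against 3170, 1707 and 1616 CPM in control, a mean log2 ratio of 0.46 ± 0.41 (SD, n = 3 experiments). The groups overlapped. At 500 UMIs per barcode, APOC1 was found in 94.1%, 62.4% and 53.7% of cone-like barcodes over the graft and in 79.6%, 58.4% and 52.3% in control, and in 20.1%, 11.2% and 11.5% of Müller glia-like barcodes over the graft and 9.81%, 7.06% and 3.69% in control. By the rod markers found in cone-like cells, free RNA reached 100% of their UMIs in both LG5 punches, 19.7% and 21.1% over the graft in RC726 and RC724, and 16.2% and 21.1% in control. In LG5 the estimate is at its upper limit, so it is no firm measure of free RNA there. APOC1 in cone-like cells had 2.55, 9.86 and 11.5 times the free RNA level over the graft in LG5, RC726 and RC724. In control it had 2.55, 16.4 and 21.7 times that level. The LG5 control cones had 3170 APOC1 CPM, against 2774 CPM in the rods of that punch. FABP5 in cone-like cells had 1222, 109 and 154 CPM over the graft, against 201, 51.9 and 79.7 CPM in control, a mean log2 ratio of 1.53 ± 0.92 (SD, n = 3 experiments), again with overlapping groups. The ratio was 2.60 in LG5, where FABP5 had 1.34 times the free RNA level over the graft and 1.16 times in control, and without LG5 the mean ratio was 1.001. APOE in cone-like cells had 0.0864, 0.119 and 0.0579 times the free RNA level over the graft, so the estimate exceeds the observed APOE there. LPL in cones rested on 26, 1 and 10 UMIs over the graft and 2, 1 and 0 UMIs in control. Of the genes tested in cone-like cells, 2.83% passed in either direction.

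**Figure D3:**
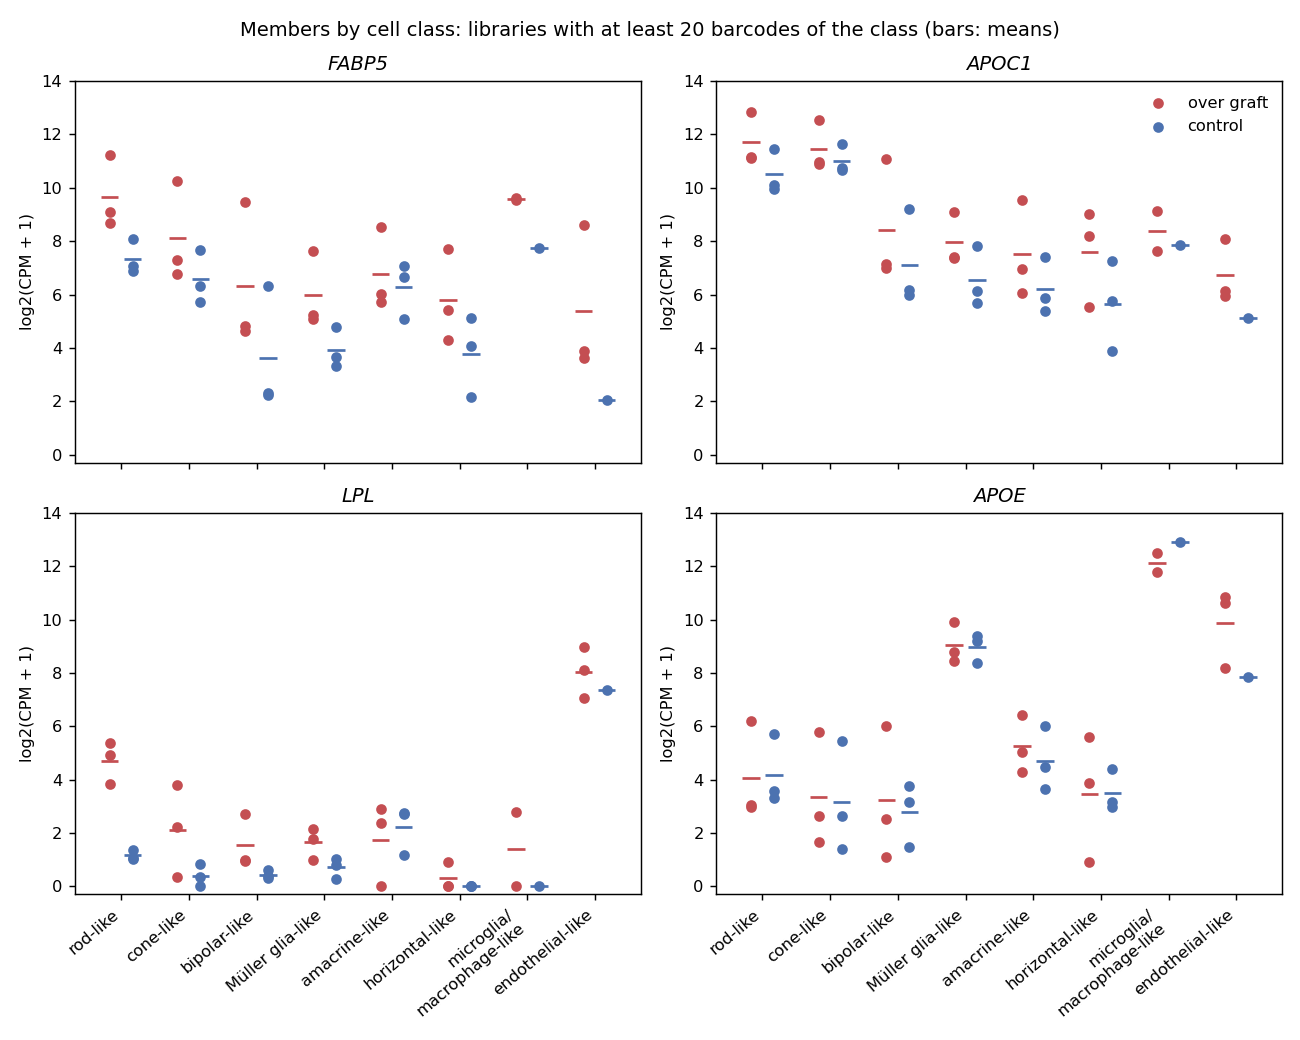
Log2(CPM + 1) of the 4 genes by cell class; each point is a library with at least 20 barcodes of the class, red over the graft and blue control, and bars are means. FABP5 and APOC1 are high in rods and cones, LPL is highest in endothelial-like cells, and APOE is highest in microglia- or macrophage-like, endothelial-like and Müller glia-like cells.

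The order of the classes differed between the genes. By mean CPM over the control libraries with at least 20 barcodes of the class, APOC1 was highest in cone-like cells (2164 ± 872, SD, n = 3), then rod-like cells (1624 ± 997), whose ranges overlap. Bipolar-like cells came next with 240 ± 301 CPM, and their range lay below that of rods. Over the graft rod-like cells led with 3976 ± 2980 CPM, then cone-like cells with 3300 ± 2357 CPM, and neither pair of neighbours separated. FABP5 in control was highest in the LG5 microglia- or macrophage-like cells (213 CPM, 1 library), rod-like cells (173 ± 82.7 CPM) and cone-like cells (111 ± 79.3 CPM), whose ranges overlap. Over the graft rod-like cells had 1109 ± 1094 FABP5 CPM, and the 2 libraries with enough microglia- or macrophage-like cells had 749 and 777 CPM.

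LPL was highest in endothelial-like cells. This class is a single cluster of 158 barcodes led by APOA1, IGFBP7 and CLDN5 that also carried pericyte markers, and CLDN5, a tight junction protein of endothelium, had 3448, 2923 and 2937 CPM there over the graft, against 2652, 3777 and 3137 CPM in control. LPL had 134, 273 and 504 CPM over the graft in LG5, RC726 and RC724, from 38, 28 and 40 barcodes, against 105, 59.7 and 164 CPM in control, from 17, 10 and 25 barcodes. Each graft value was above its control, but the groups overlapped and the class was too small to test. The LPL counts behind these values were 37, 336 and 727 UMIs over the graft and 12, 7 and 103 UMIs in control. Over the graft, rod-like cells came second for LPL with 27.8 ± 13.9 CPM, and their range lay below that of endothelial-like cells and above that of cone-like cells.

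APOE was highest in microglia- or macrophage-like cells. In LG5 it had 5778 CPM over the graft, from 330 barcodes, against 7598 CPM in control, from 172 barcodes, a log2 ratio of -0.39 with no replicate. RC726 over the graft had 3533 CPM from 36 barcodes, against 2858 CPM from 17 control barcodes, and RC724 had 883 CPM from 18 barcodes, against 1095 CPM from 9 control barcodes. Endothelial-like cells had 1843, 1578 and 288 APOE CPM over the graft, against 1050, 1125 and 232 CPM in control. Müller glia-like cells, the main glia of the retina, had 974, 436 and 352 APOE CPM over the graft in LG5, RC726 and RC724, against 663, 580 and 335 CPM in control. APOE in Müller glia was therefore higher over the graft in LG5 and RC724 and lower in RC726, with a mean log2 ratio of 0.07 ± 0.48 (SD, n = 3 experiments). Müller glia-like cells held 36.4%, 63.7% and 85.0% of all APOE UMIs of the punch over the graft, and 34.5%, 69.4% and 89.0% in control.

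The clusters of the Müller glia-like class were split by library in RC724, with 777 graft and 6 control barcodes in cluster 12, and 1 graft and 801 control barcodes in cluster 26. In cluster 24, which held both punches, RC726 and RC724 had 493.5 and 346 APOE CPM over the graft, against 464 and 379 CPM in control. In cluster 14 they had 415 and 376 CPM over the graft, against 611 and 586 CPM in control.

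FABP5 and APOC1 were also higher over the graft in Müller glia-like cells, but at levels close to the free RNA estimate in every library. FABP5 had 197, 33.3 and 36.9 CPM over the graft in LG5, RC726 and RC724, against 26.8, 9.12 and 11.7 CPM in control, and APOC1 had 548.5, 170 and 165 CPM over the graft, against 226, 69.5 and 50.6 CPM in control. Estimated from the rod markers found in this class, free RNA made up 20.6%, 14.4% and 16.9% of its UMIs over the graft and 17.4%, 8.66% and 12.4% in control. The observed FABP5 level was 1.05 to 1.23 times the level this gives over the graft and 0.889 to 1.63 times in control. For APOC1 the ratio was 1.13 to 1.25 over the graft and 1.05 to 1.25 in control, and for LPL 0.584 to 1.17 over the graft and 2.68 to 2.95 in control. APOE, by contrast, had 7.48 to 13.8 times the free RNA level over the graft and 9.37 to 33.5 times in control. The mean log2 ratios of FABP5 and APOC1 in Müller glia-like cells were 2.06 ± 0.68 and 1.41 ± 0.24 (SD, n = 3 experiments). After free RNA was subtracted they were 1.67 and 1.84. RNA of the Müller glia and free RNA cannot be told apart at these levels. LPL rested on 24, 16 and 86 UMIs over the graft and 5, 2 and 22 UMIs in control.

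**Figure D4:**
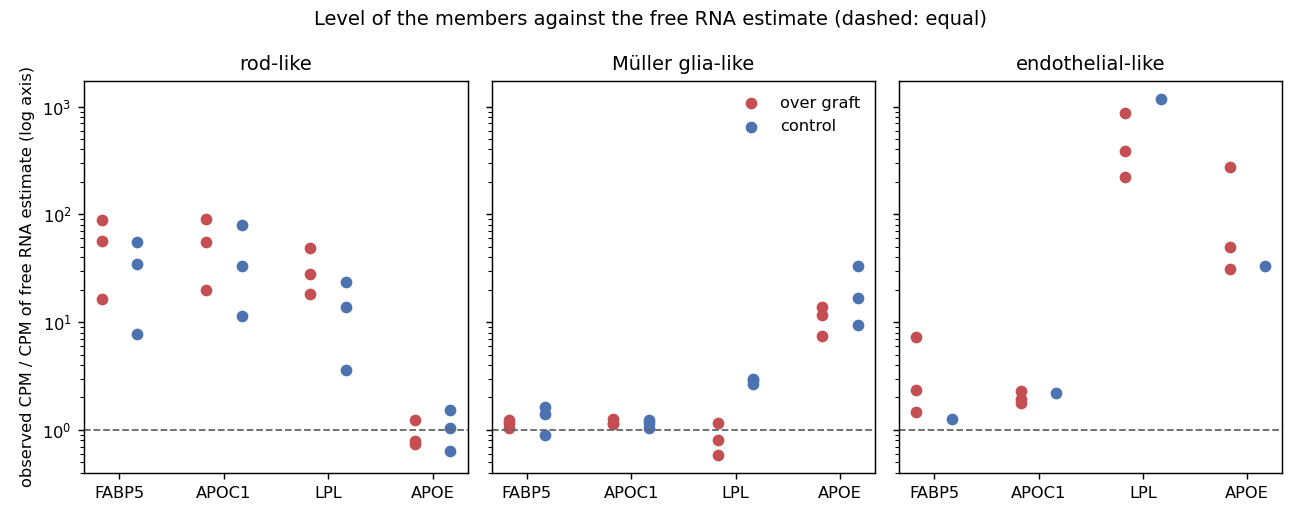
Observed CPM of each gene divided by the CPM that the estimate of free RNA gives, on a log axis, in rod-like, Müller glia-like and endothelial-like cells; each point is a library with at least 20 barcodes of the class, red over the graft and blue control, and the dashed line marks equal values. FABP5, APOC1 and LPL stand above the line in rods, FABP5 and APOC1 lie close to it in Müller glia, and APOE lies near it in rods and above it in Müller glia.

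Horizontal-like and bipolar-like cells over the graft were at or below the free RNA level for FABP5 as well, and amacrine-like cells were above it. APOE over the graft in LG5, RC726 and RC724 had 0.105, 0.152 and 0.0350 times that level in bipolar-like cells. In horizontal-like cells it had 0.235, 0.204 and 0.0333 times that level. The estimate thus gives more APOE than was observed there, and it is no firm measure of free RNA in these 2 classes. In amacrine-like cells, inhibitory interneurons, FABP5 had 371, 63.8 and 51.6 CPM over the graft in LG5, RC726 and RC724, against 133, 98.8 and 33.1 CPM in control, which is 1.22, 4.20 and 2.06 times the free RNA level over the graft and 4.94, 18.2 and 5.43 times in control. RC726 amacrine-like cells were the 1 pair of a class and an experiment among 21 in which FABP5 was lower over the graft. In horizontal-like cells the observed FABP5 level was 0.720, 0.719 and 0.675 times the free RNA level over the graft. Bipolar-like cells, which relay photoreceptor signals, had 702, 23.9 and 27.0 FABP5 CPM over the graft, against 79.3, 3.71 and 3.99 CPM in control. In RC724 the punches lay in different bipolar clusters, with 432 graft and 0 control barcodes in cluster 18 and 15 graft and 712 control barcodes in cluster 28. In LG5 the estimate of free RNA reached 97.7% of their UMIs over the graft, so it cannot separate the sources there. Over the 21 pairs, the log2 ratio was above 0 in 21 for APOC1, 18 for LPL and 14 for APOE. The contrast chose these genes and the share over all genes was not taken, so nothing is read from these counts. APOC1 over the graft had 0.932, 0.980 and 0.872 times the free RNA level in bipolar-like cells. In horizontal-like cells it had 0.686, 0.925 and 0.392 times that level. Some LPL pairs rest on very few UMIs, such as 1 in each punch for RC726 cone-like cells.

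Microglia- or macrophage-like cells were numerous only in LG5, and their FABP5 lay above the free RNA level. FABP5 had 749 CPM over the graft, against 213 CPM in control, 4.49 and 7.71 times the free RNA level. It was found in 65.2% of 330 barcodes over the graft (exact 95% interval 59.7% to 70.3%) and in 19.2% of 172 control barcodes (13.6% to 25.9%). The other experiments did not share this difference: RC726 had 777 CPM over the graft, against 1202 CPM in control from 17 barcodes, and RC724 had 347 CPM, against 328 CPM from 9 barcodes. APOC1 had 554 CPM over the graft, against 230 CPM in control in LG5, only 1.28 and 1.17 times the free RNA level. LPL gave 5 UMIs over the graft and was found in 0 of 172 control barcodes, which allows a share of up to 1.74% of barcodes with a UMI and sets no limit on cells that express it. FABP5 and APOE were found together in 194 of the 330 barcodes over the graft, 58.8%, with a product of the separate shares of 58.2%, and in 18.6% of control barcodes, with a product of 18.2%.

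Across the 46 sums of a class and a library, the genes most like FABP5 in log2(CPM + 1) among 14128 genes were LOC102155424 (Pearson r 0.86), HMGN2 (0.81), GGCT, VMO1 and CAPN10. LOC102155424 is a protein-coding locus with no other name in the RefSeq table, and whether it shares reads with FABP5 was not tested. Those most like APOC1 were SMIM40 (0.93), PLEKHB1, RTBDN, RANGRF and RCVRN, the last of which encodes the photoreceptor protein recoverin. The genes nearest to LPL were GJA1 (0.86), STARD8, FHL5, IGFBP7 and FZD4, and those nearest to APOE were FKBP11 (0.92), IER2, BTG2, SELENOP and DUSP1. FABP5 and APOC1 correlated with each other at 0.78, while APOC1 and APOE, which lie next to each other with 0 genes between them in the RefSeq annotation of the dog assembly UU_Cfam_GSD_1.0, correlated at -0.09. These sums share libraries, depth and clusters, so the values only describe them.

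The 4 genes were set beside 172 other lipid genes in 11 lists, of which 166 were in the files. In rod-like cells 106 of them were tested with edgeR, 14 rose (13.2%) and 20 fell (18.9%) over the graft at an adjusted p under 0.05, against 11.4% and 10.3% of all tested genes, with a median log2 change of -0.14, against 0.00405 for all genes. Without the block for the experiment edgeR called none of these genes, with 5 higher and 6 lower at an unadjusted p under 0.05.

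Among the fatty acid binding proteins, the relatives of FABP5 in rods went in both directions, 2 up and 2 down of 6 tested. Of all genes tested in rods, 11.4% rose and 10.3% fell. The lists are small, so this count and the list counts below only describe them. FABP7, known as the brain fatty acid binding protein, rose to 39.6, 20.3 and 35.4 CPM over the graft in LG5, RC726 and RC724, against 28.3, 3.13 and 15.1 CPM in control (log2 change 1.35 ± 0.29, SE, edgeR adjusted p = 0.0069), and this call was lost in DESeq2 (adjusted p = 0.0981). FABP12 fell to 31.5, 35.5 and 21.3 CPM over the graft, against 92.9, 71.8 and 62.7 CPM in control, with no overlap of the groups (-1.37 ± 0.14, edgeR adjusted p = 4.78e-05). FABP4, the adipocyte form, fell by 1.504 on the log2 scale. Of 3 apolipoproteins tested, APOA1 rose, with 5.01, 7.98 and 10.1 CPM over the graft, against 3.61, 1.81 and 4.19 CPM in control. APOA1 is a leading gene of the endothelial-like cluster, and its call was lost without RC726 (edgeR adjusted p = 0.0548).

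In rods, of 10 lipases and regulators tested, 0 rose and 4 fell, against 11.4% and 10.3% of all tested genes. Those that fell include PNPLA3, a triglyceride lipase of lipid droplets (-1.31 ± 0.18, SE, edgeR adjusted p = 0.000333), PNPLA2 (-0.62) and SORL1 (-0.43). LMF1 and SEL1L, which mature lipoprotein lipase in the endoplasmic reticulum, had log2 changes of 0.10 ± 0.14 and -0.29 ± 0.10 and did not pass. Of 12 receptor genes 1 rose and 4 fell, set against the same shares. SORT1, a sorting receptor, fell by 0.63 on the log2 scale, while MYLIP, a ubiquitin ligase, rose to 111, 104 and 113 CPM over the graft, against 63.6, 69.2 and 73.6 CPM in control. Neither gene overlapped between the groups.

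**Figure D5:**
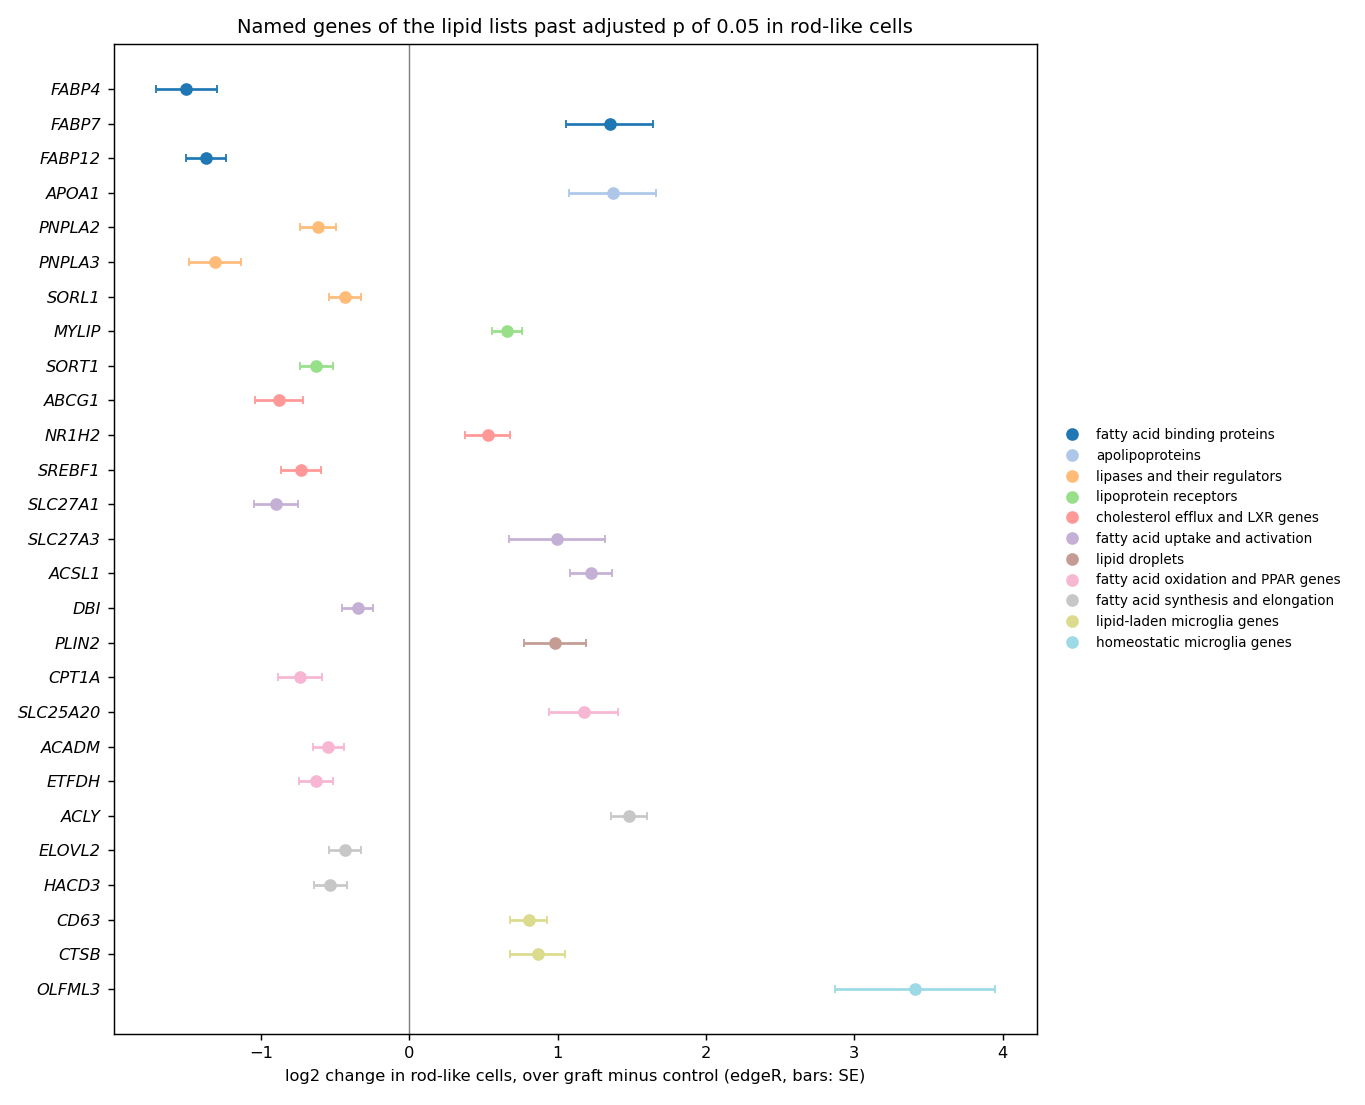
Log2 change over the graft against control in rod-like cells (edgeR, bars are SE) of the named genes of the lipid lists that passed an adjusted p of 0.05, coloured by list. ACLY, ACSL1 and MYLIP are among the genes to the right of 0, and PNPLA3, FABP12 and FABP4 lie to the left.

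Genes that activate, make and store fatty acids were mixed. ACSL1, which joins fatty acids to coenzyme A, rose to 711, 417.5 and 684 CPM over the graft in LG5, RC726 and RC724, against 227, 233 and 293 CPM in control (1.22 ± 0.14, SE, edgeR adjusted p = 0.000138). ACLY, which makes cytosolic acetyl coenzyme A, rose to 321, 100.4 and 317 CPM over the graft, against 108, 43.6 and 98.1 CPM in control (1.48 ± 0.12, edgeR adjusted p = 1.38e-05). PLIN2, a coat protein of lipid droplets, rose by 0.98 but at 20.2, 6.49 and 6.04 CPM over the graft, against 7.81, 3.82 and 3.39 CPM in control. The elongation genes ELOVL2 and HACD3 fell by 0.43 and 0.53, the fatty acid transporter SLC27A1 by 0.90, and the transcription factor gene SREBF1 by 0.73. Of the cholesterol exporters, ABCG1 fell by 0.88 on the log2 scale, and ABCA1 had 67.8, 117.5 and 115 CPM over the graft, against 97.1, 103 and 93.5 CPM in control, with no call (edgeR adjusted p = 0.993).

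Of 15 genes of fatty acid oxidation tested in rods, 2 rose and 4 fell, against 11.4% and 10.3% of all tested genes. CPT1A, which commits fatty acids to mitochondrial oxidation, had 66.8, 141 and 122 CPM over the graft, against 154, 204 and 170 CPM in control, a fall of 0.74 on the log2 scale with no overlap. ACADM and ETFDH fell by 0.55 and 0.63, and SLC25A20, the mitochondrial carrier of acylcarnitines, rose by 1.17, a call lost without RC724 (edgeR adjusted p = 0.176). Genes known from lipid-laden microglia that were tested in rods rose in 3 of 6 cases, against 11.4% of all tested genes. They were CD63 and CTSB, which belong to lysosomes, by 0.80 and 0.86, and PLIN2. Among 4 homeostatic microglia genes only OLFML3 passed, set against the same share. It rose, at 2.002, 1.26 and 3.68 CPM over the graft, against 0.451, 0.139 and 0.0997 CPM in control. Without RC724 the edgeR calls of SORL1, NR1H2, ELOVL2 and CTSB were also lost, and that of PLIN2 was lost when free RNA was subtracted (edgeR adjusted p = 0.0529). The microglia or macrophage markers in rods, given above, were higher over the graft as well, and their part in these counts was not tested.

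Fewer lipid genes passed in the other classes. In cone-like cells 2 of 86 rose and 2 fell, against 1.96% and 0.866% of all tested genes: ACLY rose by 1.11 and LRP2, an endocytic receptor, by 0.77, while HACD3 fell by 0.78 on the log2 scale. In Müller glia-like cells 2 of 116 rose and 0 fell, against 0.497% and 0.371% of all tested genes (0.868% in either direction), with 18 of them at an unadjusted p under 0.05. These were ACSL1, with 44.8, 24.4 and 39.7 CPM over the graft in LG5, RC726 and RC724, against 20.5, 15.8 and 12.01 CPM in control, and SCD, a fatty acid desaturase, with 76.3, 31.9 and 56.0 CPM over the graft, against 39.4, 23.5 and 25.2 CPM in control (edgeR adjusted p = 0.0307 and 0.046). Both calls were lost when free RNA was subtracted, where ACSL1 had a log2 change of -2.07. CLU, a major apolipoprotein of glia, had 9575, 8830 and 10060 CPM in Müller glia-like cells over the graft and 5307, 4180 and 8827 CPM in control, with no overlap of the groups and no call (0.72 ± 0.31, SE, edgeR adjusted p = 0.33). Without RC724 CLU passed in Müller glia (edgeR adjusted p = 0.00982). PLIN2, FABP7 and ABCA1 in Müller glia had log2 changes of -0.05, -0.15 and 0.22, and CD36, a fatty acid receptor, gave 0 UMIs over the graft and 1 UMI in control.

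In bipolar-like cells 2 of 98 lipid genes rose and 0 fell, against 0.383% and 0.107% of all tested genes (0.49% in either direction), namely ACSL1 (1.25 ± 0.19, SE, edgeR adjusted p = 0.0108) and CYP46A1, which turns cholesterol into a form that leaves neurons (0.73 ± 0.12, edgeR adjusted p = 0.02). ACSL1 had 210, 28.4 and 33.1 CPM in bipolar-like cells over the graft in LG5, RC726 and RC724, against 56.5, 19.3 and 14.7 CPM in control, below its level in rods, and the estimated free RNA was 97.7%, 14.1% and 18.7% over the graft and 47.8%, 9.13% and 13.9% in control. EdgeR was also run on these cells with free RNA subtracted, but the result for that call is not given here. In amacrine-like cells CLU rose and 0 of 90 fell, against 0.298% and 0.149% of all tested genes, 0.446% in either direction (1.34 ± 0.19, edgeR adjusted p = 0.00313). CLU had 259, 32.3 and 88.4 CPM there over the graft in LG5, RC726 and RC724, against 96.9, 20.9 and 29.2 CPM in control, far below its level in Müller glia, with free RNA at 33.3%, 8.09% and 13.5% over the graft and 15.5%, 7.27% and 10.52% in control. The edgeR result for this call with free RNA subtracted is not given here either. In horizontal-like cells 0 of 39 passed the edgeR test, with 2 at an unadjusted p under 0.05, and 0.0834% of all tested genes passed there, 0.0501% higher and 0.0334% lower. DESeq2 was run on all 6 tested classes, and its results are given only for rod-like and Müller glia-like cells. The labels call the 3 experiments independent and do not describe the animals behind them. With the experiment as a block, p-values measure the spread of the graft-against-control differences over these 3 experiments, with variances moderated across genes.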

How the data were processed

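Single-cell libraries (10x 3' v3.1) of 6 punches were read from the deposited tables of UMI counts per gene and barcode, made by the authors with Cell Ranger. Per the file headers the version was 6.0.2 for both LG5 libraries and 7.1.0 for both RC724 libraries. For RC726 it was 7.1.0 over the graft and 7.0.0 in control. Genome build and annotation: not given in the sources used here. Of 34981 gene names, 33363 matched a symbol in the RefSeq table of UU_Cfam_GSD_1.0.

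Barcodes with under 300 genes or over 20% mitochondrial UMIs were left out. Scrublet's own threshold marked at most 0.0351% of barcodes, so the 6% with the highest scores per library were removed instead. Scanpy 1.11.5 and igraph 0.11.9 gave 69 Leiden clusters (2540 genes, 30 components, 20 neighbours, resolution 1.5), with 288 genes that differed between the punches left out, and 1516 immune barcodes were clustered again. Of these clusters 40 were named, on a mean marker score of at least 1.0, a margin of 0.5 and at least 3 markers. These limits were chosen once the data had been seen, and rebuilt names may differ from the study's. The 4 genes and the lipid lists were chosen with earlier results of these data known.

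UMIs were summed per class and library. Log2 ratios per experiment are on CPM + 1, and shares carry exact Clopper-Pearson 95% intervals and a floor of 3 counts. Intervals and floors cover counting error only. Classes with at least 20 barcodes in all 6 libraries were tested with edgeR 4.0.16 (quasi-likelihood, TMM, its filter on low counts, Benjamini-Hochberg adjustment over all tested genes, experiment as a block, 2 residual degrees of freedom) in R 4.3.3, with DESeq2 1.42.0 as an alternative. Both punches of an experiment came from the same retina, and their deviations from the group means correlated at 0.589 to 0.952. Punches of different experiments correlated as well. In rods, RC726 over the graft correlated at 0.775 with the RC724 control and at -0.887 with the LG5 control. These values therefore also hold the distance of LG5 from the other experiments and do not by themselves show the pairing. Per list and class, up to 4 genes with an adjusted p under 0.05 and one direction in all 3 experiments were named by smallest p, besides ABCA1, PLIN2, FABP7, CLU and CD36 in Müller glia. Some genes that the rule names are counted in their lists but not reported here. SCARB1, LMF1 and SEL1L were also looked at after their values were seen. On counts simulated for the rod-like class (15042 genes), edgeR recovered 95% of 100 genes changed by 1 on the log2 scale, and 93% for Müller glia-like cells (15619 genes). Another 100 genes changed by 2 were all recovered in both classes. It also called 14 unchanged genes in the rod-like run and 40 in the Müller glia-like run. In both runs this was a larger share of all calls than the threshold of 0.05 aims at, most of all in Müller glia-like cells. Calls just under the threshold there, such as those of ACSL1 and SCD, are the less sure for it.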

Additional observations from a re-analysis of the deposited data

How the results depend on the processing

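The rod ratios of FABP5 and APOC1 stayed within 1 SD under every alternative tried, with leave-one-out ranges of 1.92 to 2.68 and 1.11 to 1.31. LPL in rods was 1.68 with a pseudocount of 10 CPM, against 3.55, and 3.32 to 3.95 with 1 experiment left out. APOE in Müller glia ranged from -0.17 to 0.31, and APOC1 in Müller glia was 1.84 after free RNA was subtracted. Without the replicate block edgeR called 0 lipid genes higher and 0 lower in rods (5 and 6 at an unadjusted p under 0.05) and 0 higher in Müller glia. With 1 experiment left out it called 10 to 13 higher and 16 to 20 lower in rods. DESeq2 called 10 higher and 19 lower in rods. In Müller glia, against 2 higher and 0 lower, the counts higher were 1 with RLE factors, 16 with no low-count filter, 5 with DESeq2, 0 with the barcode gate, 0 with free RNA subtracted and 3 to 13 with 1 experiment left out. The counts lower were 1 with no filter and 0 to 1 with 1 experiment left out. Signs turned in Müller glia for FABP7, ABCA1, ACSL1 and PLIN2, and the cause was not tested. With 1 experiment left out, FABP7 ranged from -0.40 to 0.0814, ABCA1 from -0.12 to 0.82 and PLIN2 from -0.11 to 0.0404. ABCA1 was -0.000823 without the block, ACSL1 -2.07 with free RNA subtracted, and PLIN2 0.12 with the barcode gate. The barcode gate put 20.4% of Müller glia-like barcodes in the same class. The free RNA alternative in rods and the run with no doublets removed were chosen after seeing the data. Depth limits LPL outside rods and endothelial-like cells, and all values in classes of under 50 barcodes.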

Other observations

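Clusters that no marker list named also held the 4 genes. A cluster led by FN1, FBP1 and CFD had 164 barcodes in LG5 over the graft, with 3139 FABP5 CPM, 2938 APOC1 CPM, 757.5 APOE CPM and 0 LPL UMIs, and FABP5 in 80.5% of barcodes. A cluster led by CXCL13 had 1333 FABP5 CPM and 2677 APOE CPM in 86 barcodes of LG5 over the graft. Doublets made up 35.0% of its barcodes before their removal, above the limit of 30% for a named cluster. Another cluster led by CXCL13, which was named microglia- or macrophage-like, had 896 FABP5 CPM and 4654 APOE CPM in LG5 over the graft. A cluster led by the cell cycle genes TOP2A, UBE2C and CENPF had 1089 FABP5 CPM and 2028 APOE CPM in 52 barcodes of that library.

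FABP5 was high in both punches in a cluster led by WFDC2, CDO1 and APELA, with 2090 CPM over the graft, against 1420 CPM in control in LG5, from 812 and 371 barcodes. In a cluster led by FGG, CDO1 and ALK it was lower over the graft, with 327 CPM over the graft, against 340 CPM in control in RC726, and 229 CPM over the graft, against 419 CPM in control in RC724. A cluster led by DAPL1, C9H17orf67 and OTOS had 1049 FABP5 CPM over the graft, against 133 CPM in control in LG5. Another, led by DAPL1, OTOS and IFI6, had 103 CPM over the graft, against 27.2 CPM in control in LG5. No test was made of these values.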
